A study of Mus musculus with 9 samples.

Results

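The genes described here are 10 genes of prostaglandin synthesis, breakdown, transport and reception, taken by symbol from a count table of 23955 rows, in which each of them had 1 row. They are Ptgs1, Ptgs2, Ptges, Ptges2, Ptges3, Hpgds, Tbxas1, Hpgd, Slco2a1 and Ptger4, the pathway whose entry enzymes sulindac inhibits. RNA-seq was performed on 9 samples of mouse gut organoids, which are epithelial cultures grown in a gel, in 3 groups of 3. MIN organoids came from the normal-appearing gut next to the tumors of APCmin/+ mice, adenoma organoids from the adenomatous polyps of these mice, and sulindac organoids from such polyps treated with sulindac, a non-steroidal anti-inflammatory drug (NSAID). All 3 groups therefore carried the mutated Apc allele, and no organoids with an intact Apc gene were analysed here. All organoids were grown in a medium with Noggin, EGF, bFGF, R-spondin1 and B27. The dose and duration of sulindac for the organoids, a vehicle for the untreated ones, the ages of the mice and which cultures came from the same animal are not given in the sources used here. The samples were described as biological replicates, but nothing says how many animals gave the cultures, so the p-values measure the spread between these samples.

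Prostaglandins are lipid messengers made from arachidonic acid, which phospholipase A2 releases from membranes. The cyclooxygenases COX-1 (Ptgs1) and COX-2 (Ptgs2) turn it into prostaglandin H2, and terminal synthases turn that into prostaglandin E2, prostaglandin D2 or thromboxane. A transporter takes prostaglandin E2 up into the cell, 15-hydroxyprostaglandin dehydrogenase inactivates it there, and receptors such as EP4 (Ptger4) pass its signal on through cyclic AMP. In the gut, prostaglandin E2 is known for its role in epithelial repair and polyp growth, and NSAIDs such as sulindac inhibit the cyclooxygenase proteins. The counts below are of mRNA and say nothing about enzyme activity.

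Total counts per sample ran from 30881206 to 48412477. Levels are given as CPM (counts per 1000000 counts of a library, on the TMM-normalized scale), on which 3 counts, the floor used here, corresponded to 0.0641 to 0.10 CPM depending on the sample. Such floors cover counting error only. Differences are log2 fold changes from edgeR's quasi-likelihood test with their standard error (SE) or 95% interval, and a gene passed when its Benjamini-Hochberg adjusted p over all genes tested was under a false discovery rate (FDR) of 1%. In bulk RNA, fewer cells that express a gene and less RNA of it per cell cannot be told apart. The 3 comparisons share samples, so the agreement of a gene between them was not taken as evidence.

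Of the 10 genes, 10 could be tested in adenoma over MIN, where 2 were higher in adenoma (Ptgs1 and Ptges) and 6 lower (Ptgs2, Ptges2, Hpgds, Tbxas1, Slco2a1 and Ptger4). Of all 13744 genes tested in that comparison, 18.5% were higher and 20.1% lower. In the fit that blocks on the replicate number, 2 were higher and 5 lower, since Hpgds no longer passed. Of all 13744 genes, 2531 were higher and 2733 lower in that fit. In sulindac over adenoma, 8 of the 10 could be tested and 1 was higher (Slco2a1), against 8.32% of the 12962 genes tested, and 0 were lower, against 9.10%. By DESeq2 0 of the 8 were lower too, where 1766 of the 12962 genes were lower. At an unadjusted edgeR p under 0.05, 2 of the 8 were higher (Ptges3 and Slco2a1) and 1 lower (Ptges) in that comparison. The share of all genes under that unadjusted p is not given here, so these counts have no baseline. In sulindac over MIN, 2 of 10 were higher (Ptgs1 and Ptges) and 6 lower (Ptgs2, Ptges2, Hpgds, Tbxas1, Slco2a1 and Ptger4), against 23.0% and 26.8% of 13551 genes. The median log2 fold change of the genes tested was −1.20, 0.12 and −1.50 in the 3 comparisons, and that of all genes was −0.0077, −0.013 and −0.031. Some genes passed the low-count filter only through the group in which they were high, which were Ptgs1, Ptgs2, Slco2a1 and Tbxas1 in adenoma over MIN. Those were Hpgds and Slco2a1 in sulindac over adenoma, and Ptgs1, Ptgs2, Hpgds and Tbxas1 in sulindac over MIN. Among the 6 genes over the filter in both groups of a comparison, 1 was higher and 3 lower in adenoma over MIN, none passed in sulindac over adenoma, and 1 was higher and 3 lower in sulindac over MIN. The share of all genes under this rule was not computed. Under a near but not identical rule, at least 10 counts in every sample, 2043 genes were higher and 1920 lower of 12070 in adenoma over MIN. These were 970 and 1046 of 12090 in sulindac over adenoma, and 2631 and 2793 of 11833 in sulindac over MIN.

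**Figure D1:**
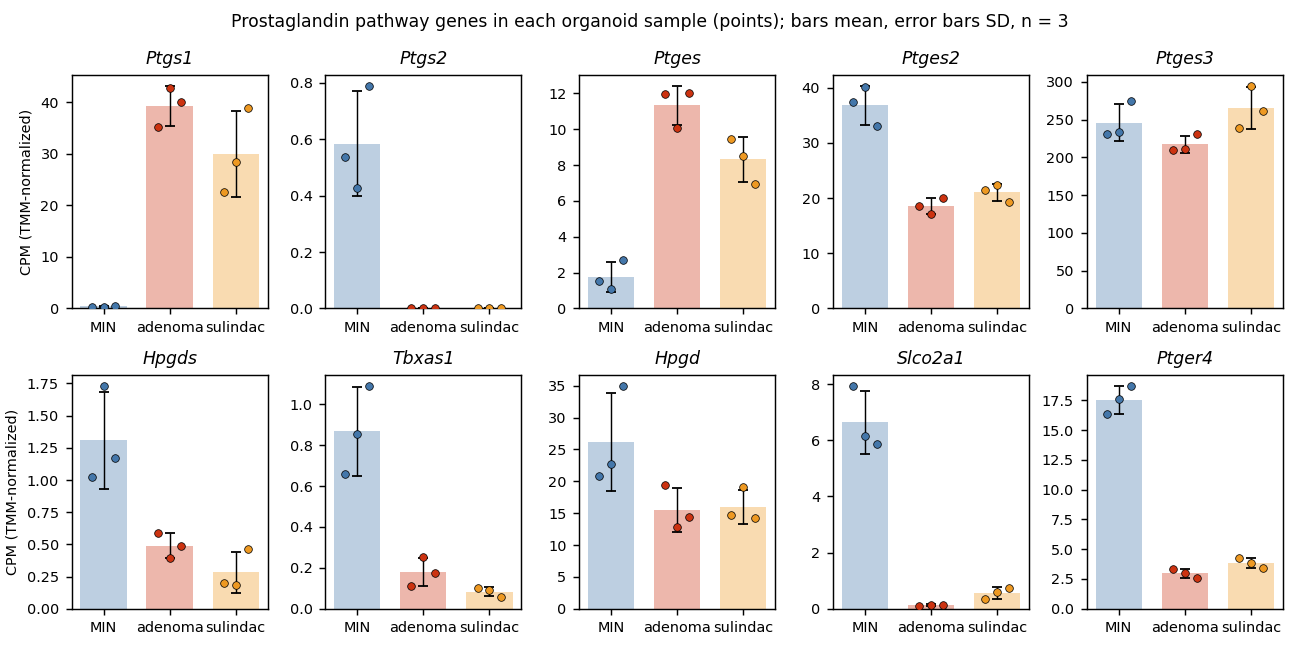
Level of each of the 10 genes (CPM, TMM-normalized, linear axes that start at 0) in the 3 samples of each group, with points for samples, bars for the mean and error bars for the SD. Ptgs1 and Ptges stood higher in adenoma and sulindac organoids than in MIN, Ptgs2 was at 0 in all 6 adenoma and sulindac samples, and Slco2a1 and Ptger4 stood highest in MIN.

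The cyclooxygenases moved in opposite directions in adenoma over MIN. To show the sequence from which these 2 genes are started, the 250 bases before the start of each, from RefSeq on GRCm38.p6 and printed 5′ to 3′ on the gene's strand, are given here with those of Slco2a1, the only one of the 10 genes that passed in all 3 comparisons. Ptgs1 is at chr2:36230176-36230425, Ptgs2 at chr1:150099781-150100030 and Slco2a1 at chr9:103008237-103008486, all on the plus strand, and capitals mark a GC box (GGGCGG) or a TATA box (TATAAA) on either strand.
Ptgs1: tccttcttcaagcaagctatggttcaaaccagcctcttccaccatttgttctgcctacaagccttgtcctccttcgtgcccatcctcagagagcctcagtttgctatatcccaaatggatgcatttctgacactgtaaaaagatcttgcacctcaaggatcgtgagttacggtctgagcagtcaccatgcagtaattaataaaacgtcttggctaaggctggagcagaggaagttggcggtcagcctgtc
Ptgs2: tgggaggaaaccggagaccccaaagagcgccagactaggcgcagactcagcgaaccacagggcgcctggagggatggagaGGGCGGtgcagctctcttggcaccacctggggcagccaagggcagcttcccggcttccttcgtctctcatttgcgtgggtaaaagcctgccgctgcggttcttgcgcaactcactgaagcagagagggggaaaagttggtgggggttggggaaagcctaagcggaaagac
Slco2a1: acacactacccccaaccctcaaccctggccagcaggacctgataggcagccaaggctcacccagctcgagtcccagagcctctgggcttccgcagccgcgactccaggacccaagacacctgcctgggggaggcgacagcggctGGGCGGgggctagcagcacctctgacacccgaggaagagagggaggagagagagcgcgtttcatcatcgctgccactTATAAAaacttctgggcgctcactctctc
The Ptgs1 window had a GC content of 48.0% and held none of the 5 motifs searched on both strands, which were the GC and TATA boxes, the TCF/LEF motif (CTTTGAT), the cyclic AMP response element (TGACGTCA) and the AP-1 motif (TGANTCA). The Ptgs2 window had a GC content of 61.6% and 1 GC box, 170 bases before the start. That of Slco2a1 had a GC content of 63.2%, a GC box 106 bases and a TATA box 29 bases before the start. The median GC content of all 32851 promoter windows of this length was 52.4%. The GC box was found in 6 of the 10 genes' windows (Ptgs2, Ptges, Ptges3, Hpgd, Ptger4 and Slco2a1) and in 32.7% of all windows, and the TATA box in 2 (Slco2a1 and Tbxas1) and in 12.4%. The AP-1 motif was found in 1 (Tbxas1) and in 6.75% of all windows. The TCF/LEF motif was found in 0 of the 10 and in 3.21% of all windows, and the cyclic AMP response element in 0 and in 1.55%. These matches are letters in a window and say nothing about a factor's binding.

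Ptgs1 encodes COX-1, the isoform usually described as constitutive. Its counts were 10, 16 and 21 in the MIN samples, 1253, 1533 and 1387 in the adenoma samples, and 676, 933 and 1340 in the sulindac samples. On the CPM scale the level was 0.386 ± 0.169 (SD, n = 3) in MIN, 39.4 ± 3.87 in adenoma and 30.0 ± 8.3 in sulindac organoids. The MIN samples lay far below all the others, and the sulindac samples spread from below the adenoma samples into their range. The level was 103-fold higher in adenoma than MIN (log2 6.69, SE 0.26, edgeR quasi-likelihood test, adjusted p 2.36e-07) and 78.3-fold higher in sulindac organoids than MIN (log2 6.29, SE 0.32, adjusted p 1.06e-06). Between sulindac and adenoma the log2 difference was −0.38 with a 95% interval of −0.81 to 0.049 (adjusted p 0.153), which did not pass. Of the 50-base stretches of its transcripts, 3.58% also occurred in a transcript of another gene.

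Ptgs2 encodes COX-2, the isoform known as inducible. Its counts were 22, 20 and 29 in the MIN samples and 0 in each of the 3 adenoma and 3 sulindac samples. The level in MIN was 0.584 ± 0.19 CPM (SD, n = 3). Counts of 0 allow up to 3 counts per library, so the level was at least 6.88-fold lower in adenoma than MIN and at least 6.28-fold lower in sulindac organoids than MIN. Both differences passed the edgeR quasi-likelihood test, with adjusted p 0.000572 and 0.000555. Sulindac over adenoma could not be tested, as Ptgs2 was at 0 in all 6 samples. Per kilobase of the longest coding transcript, the levels of Ptgs2 and Ptgs1 overlapped in MIN (0.131 ± 0.042 and 0.135 ± 0.059 CPM per kilobase).

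Ptgs1 is also known as a gene of tuft cells, rare chemosensory cells of the gut epithelium, so the tuft cell markers are given beside it. Dclk1 had 76, 112 and 188 counts in MIN, 7, 8 and 1 in adenoma and 1, 1 and 0 in sulindac organoids, and was lower in adenoma and in sulindac organoids than MIN (adjusted p 0.000433 and 5.18e-05). Pou2f3, the transcription factor of this cell type, fell by 2.87 on the log2 scale in adenoma (adjusted p 6.94e-05) and was at 0.462 ± 0.153 CPM there. Avil was higher in adenoma by 1.16 on the log2 scale (adjusted p 0.00563), and Sh2d7 was at 1.39 ± 0.524 CPM in MIN and 2.65 ± 0.806 in adenoma, which did not pass (adjusted p 0.0527). Of the 11 tuft cell markers with a row, 7 were tested in adenoma over MIN, of which 1 was higher and 2 lower (3 with the replicate block, which adds Trpm5), 5 in sulindac over adenoma with 0 passing, and 7 in sulindac over MIN, of which 1 was higher and 4 lower. The shares of all genes tested that were higher and lower were 18.5% and 20.1%, 8.32% and 9.10%, and 23.0% and 26.8% in these comparisons. The summed level of the 11 was 14.2 to 24.0 CPM in MIN, 10.1 to 14.2 in adenoma and 9.70 to 19.4 in sulindac organoids. Most of the sum in sulindac organoids came from Avil, which was at 6.10 to 16.0 CPM there and at 2.16 to 3.70 in MIN. Il25 was at 0 in all MIN and all sulindac samples and had 1 or 2 counts in each adenoma sample, under the floor of 3 counts. The part of tuft cells in the Ptgs1 level was not tested.

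The synthases that make prostaglandin E2 did not move as a group. Ptges, the microsomal synthase mPGES-1 that is usually coupled to COX-2, had 62, 50 and 99 counts in MIN, 425, 361 and 415 in adenoma and 284, 279 and 239 in sulindac organoids. These correspond to 1.76 ± 0.84, 11.3 ± 1.1 and 8.32 ± 1.3 CPM (SD, n = 3), and no 2 groups overlapped. Ptges was 6.50-fold higher in adenoma than MIN (log2 2.70, SE 0.32, adjusted p 0.000158, edgeR) and 4.76-fold higher in sulindac organoids than MIN (log2 2.25, SE 0.32, adjusted p 0.000352). In sulindac over adenoma the log2 difference was −0.44, with a 95% interval of −0.80 to −0.079 and an adjusted p of 0.0614, and did not pass.

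Ptges2, the membrane-associated synthase mPGES-2, had 1535, 1877 and 1214 counts in MIN, 660, 613 and 693 in adenoma and 646, 731 and 663 in sulindac organoids. The level was 36.8 ± 3.5 CPM in MIN, 18.6 ± 1.5 in adenoma and 21.1 ± 1.6 in sulindac organoids (SD, n = 3), so that the MIN samples lay above all the others and the other groups overlapped. It fell by 0.99 on the log2 scale in adenoma (SE 0.12, adjusted p 0.000195) and by 0.81 in sulindac organoids relative to MIN (SE 0.11, adjusted p 0.000244). Sulindac over adenoma gave a log2 difference of 0.19 (95% interval −0.065 to 0.44, adjusted p 0.224).

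Ptges3, the cytosolic synthase that is also the HSP90 co-chaperone p23, had the highest level of the 10 genes per kilobase in every group. Its counts were 9484, 10912 and 10079 in MIN, 7484, 7574 and 7978 in adenoma and 7177, 9651 and 8997 in sulindac organoids. The groups lay at 246 ± 25, 217 ± 11 and 265 ± 28 CPM (SD, n = 3). None of its differences passed. The log2 difference was −0.18 in adenoma over MIN (95% interval −0.43 to 0.078, adjusted p 0.217), 0.29 in sulindac over adenoma (0.065 to 0.52, adjusted p 0.0516) and 0.10 in sulindac over MIN (−0.14 to 0.34, adjusted p 0.410). Its counts are uncertain, since 21.6% of its 50-base stretches also occurred in the copy Ptges3-ps.

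Hpgds and Tbxas1 make the other products of the pathway in this list. Hpgds, the hematopoietic prostaglandin D synthase, had 42, 81 and 43 counts in MIN, 21, 14 and 17 in adenoma and 6, 6 and 16 in sulindac organoids. The level was 1.31 ± 0.37, 0.491 ± 0.099 and 0.283 ± 0.16 CPM (SD, n = 3). MIN stood above both other groups, which overlapped. The level was 2.66-fold lower in adenoma than MIN (log2 −1.41, SE 0.33, adjusted p 0.00707) and 4.56-fold lower in sulindac organoids than MIN (log2 −2.19, SE 0.43, adjusted p 0.00218). In the fit with the replicate block the adjusted p for adenoma over MIN was 0.0172, and it was 0.0115 to 0.0343 when MIN 2, MIN 3 or any of the 3 adenoma samples was left out. Without sulindac 1, the adjusted p for sulindac over MIN was 0.0124. Sulindac over adenoma gave a log2 difference of −0.76 (95% interval −1.77 to 0.25, adjusted p 0.221).

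Tbxas1, thromboxane A synthase, had 27, 40 and 40 counts in MIN, 4, 9 and 6 in adenoma and 3, 3 and 2 in sulindac organoids. The level was 0.867 ± 0.22 CPM in MIN and 0.179 ± 0.07 in adenoma (SD, n = 3), and the sulindac samples were at or under the floor of 3 counts. MIN stood above all other samples. The level was 4.75-fold lower in adenoma than MIN (log2 −2.25, SE 0.40, adjusted p 0.00162), and it was lower in sulindac organoids than MIN with an adjusted p of 0.000191. At 2 to 9 counts in adenoma and sulindac samples it was not tested between these groups.

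Hpgds and Tbxas1 are known from mast cells and macrophages as well as from tuft cells. In the mast cell list, Cpa3, Fcer1a and Ms4a2 were at 0 in all 9 samples, and the summed level of its 8 genes was 0.748 to 0.997 CPM in MIN, 0.0279 to 0.116 in adenoma and 0 to 0.0667 in sulindac organoids. Its 1 gene tested, Mcpt2, had 33, 34 and 33 counts in MIN and at most 2 in any other sample, and was lower in adenoma (adjusted p 0.000179). In the leukocyte and macrophage list, Emr1 and Tyrobp were at 0 in all 9 samples, and Ptprc, the pan-leukocyte marker, had 0 or 1 count in MIN, 4 to 8 in adenoma and 0 in sulindac organoids. The part of such cells in the levels of Hpgds and Tbxas1 was not tested.

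**Figure D2:**
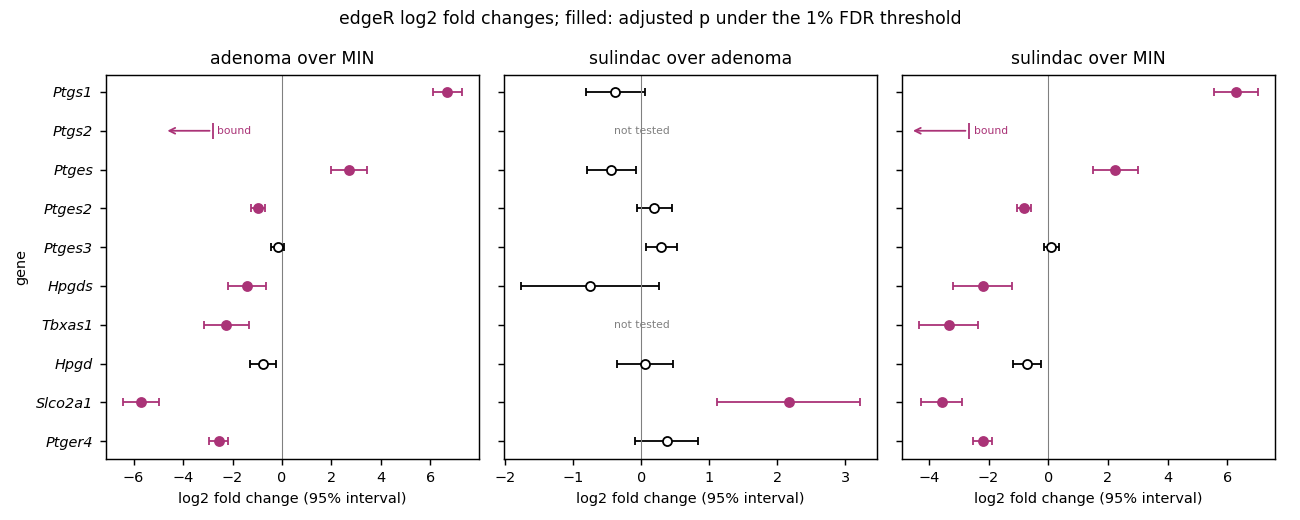
Log2 fold change of each gene in the 3 comparisons (edgeR; horizontal lines are 95% intervals, filled points passed the FDR of 1%, open points did not; each panel has its own axis). Ptgs1 had the largest rise in adenoma over MIN (6.69) and Slco2a1 alone passed in sulindac over adenoma (2.17); the arrows for Ptgs2 start at the bound that counts of 0 allow.

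Breakdown of prostaglandins was represented by Hpgd and Slco2a1. Hpgd, 15-hydroxyprostaglandin dehydrogenase, had 858, 1062 and 1284 counts in MIN, 690, 458 and 496 in adenoma and 442, 624 and 490 in sulindac organoids. The level was 26.2 ± 7.7, 15.5 ± 3.4 and 16.0 ± 2.7 CPM (SD, n = 3), and each MIN sample lay above each of the others. The log2 difference of −0.75 in adenoma over MIN did not pass (95% interval −1.28 to −0.22, adjusted p 0.0237), nor did that of −0.71 in sulindac over MIN (−1.18 to −0.24, adjusted p 0.0152). Without MIN 1, the latter passed, with a log2 difference of −0.85 and an adjusted p of 0.00826, and both passed with the Wald test of DESeq2 (adjusted p 0.00501 and 0.00235). In sulindac over adenoma the log2 difference was 0.052 (−0.37 to 0.47, adjusted p 0.849).

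Slco2a1, the prostaglandin transporter, had 326, 288 and 215 counts in MIN, 3, 5 and 5 in adenoma and 10, 20 and 25 in sulindac organoids. The level was 6.65 ± 1.1 CPM in MIN, 0.123 ± 0.034 in adenoma and 0.557 ± 0.2 in sulindac organoids (SD, n = 3). All 3 groups were apart, with adenoma lowest. The level was 52.7-fold lower in adenoma than MIN (log2 −5.72, SE 0.32, adjusted p 1.71e-06) and 11.8-fold lower in sulindac organoids than MIN (log2 −3.56, SE 0.30, adjusted p 1.53e-05). Between sulindac and adenoma it was 4.49-fold higher (log2 2.17, SE 0.46, adjusted p 0.00811), at 25 counts or fewer per sample. This last call rested on every sample, as leaving out any of the 6 (adenoma 1, 2 or 3, sulindac 1, 2 or 3) gave adjusted p values of 0.0110 to 0.0378 with log2 differences of 1.93 to 2.42, and it did not pass with DESeq2 (0.0106). The transporter is also known from endothelium, whose marker Emcn was at 0 in all 9 samples while Pecam1 had 15, 16 and 18 counts in MIN and at most 4 in any other sample, with an adjusted p of 0.00312 in adenoma over MIN. Tek, which was not tested in adenoma over MIN, went the other way, at 0.0923 ± 0.0504 CPM in MIN and 0.431 ± 0.264 in adenoma. In sulindac organoids Tek was at 0.180 ± 0.133 CPM. The summed level of the 5 endothelial markers was 0.438 to 0.626 CPM in MIN, 0.260 to 0.758 in adenoma and 0.116 to 0.367 in sulindac organoids, and their part in the Slco2a1 level was not tested.

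Ptger4, the prostaglandin E2 receptor EP4 that raises cyclic AMP, was the only receptor among the 10 genes. It had 673, 824 and 686 counts in MIN, 118, 109 and 89 in adenoma and 128, 126 and 117 in sulindac organoids. The level was 17.6 ± 1.2 CPM in MIN, 2.98 ± 0.37 in adenoma and 3.84 ± 0.43 in sulindac organoids (SD, n = 3), and no groups overlapped. It was 5.88-fold lower in adenoma than MIN (log2 −2.56, SE 0.17, adjusted p 4.28e-06) and 4.58-fold lower in sulindac organoids than MIN (log2 −2.20, SE 0.14, adjusted p 3.09e-06). The sulindac samples stood above the adenoma samples, but the log2 difference of 0.37 did not pass (95% interval −0.087 to 0.83, adjusted p 0.189).

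**Figure D3:**
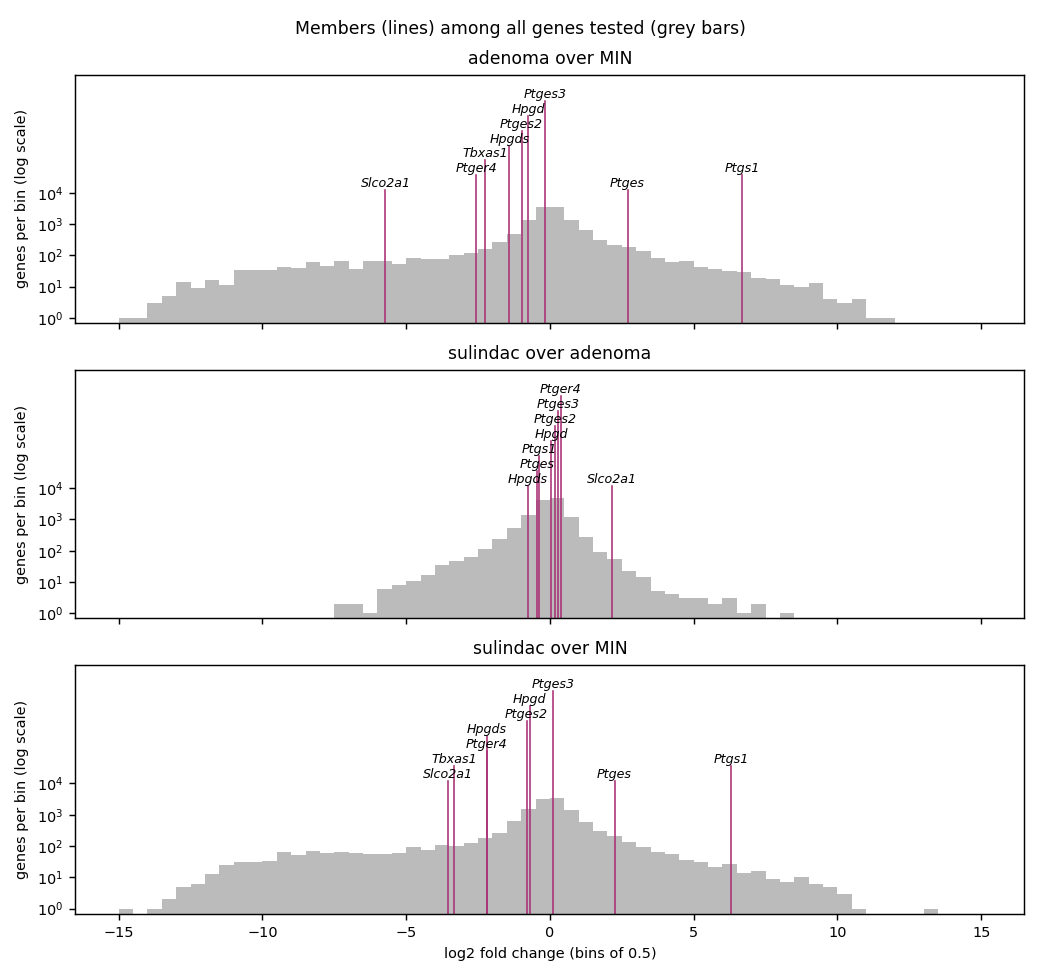
Log2 fold changes of all genes tested in each comparison (grey bars, genes per bin of 0.5 on a log axis) and of the 10 genes where tested (lines, without Ptgs2, whose fitted value is no bound). In sulindac over adenoma all lines but Slco2a1 lay between −0.76 (Hpgds) and 0.37 (Ptger4).

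Levels of different genes were set side by side only per kilobase of the longest coding transcript in GENCODE M21, a length that the isoform in use may not share. In MIN the order was Ptges3 (123.1 CPM per kilobase), Hpgd (15.6), Ptges2 (7.40), Ptger4 (5.30), Slco2a1 (0.933), Ptges (0.482), Tbxas1 (0.436), Hpgds (0.376), Ptgs1 (0.135) and Ptgs2 (0.131). The neighbours from Ptges to Hpgds overlapped between samples, as did Ptgs1 and Ptgs2. In adenoma Ptgs1 stood second at 13.7 CPM per kilobase, above Hpgd at 9.21, Ptges2 at 3.73 and Ptges at 3.11, and Slco2a1 was the lowest gene with any count at 0.0172. In sulindac organoids Ptgs1 at 10.5 and Hpgd at 9.52 CPM per kilobase overlapped. Per kilobase, Ptgs1 thus lay below Hpgd in each MIN sample and above it in each adenoma sample.

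The genes whose pattern over the 9 samples was most like that of Ptgs1, by Pearson correlation of log2(CPM + 0.5) among 13883 genes, were St3gal2 (0.998), Ahr (0.998) and Arl4c (0.997). St3gal2, a sialyltransferase, was at 0.433, 6.33 and 5.26 CPM in MIN, adenoma and sulindac organoids. Ahr, the aryl hydrocarbon receptor, was at 23.5, 145 and 134 CPM, and Arl4c, a small GTPase, at 5.15, 146 and 110 CPM. Those most like Hpgd were Atp8b5 (0.965), Stxbp6 (0.935) and Atf7ip2 (0.930), with lower levels in both adenoma groups than in MIN (Stxbp6 at 22.0, 10.5 and 11.2 CPM). Such correlations describe 9 samples in 3 groups that share their depth and culture within a group.

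A list of other prostaglandin genes was taken from the same fits. It held 23 symbols, of which 21 had a row and 12 could be tested. In adenoma over MIN 2 were higher and 5 lower, against 18.5% and 20.1% of all genes tested. In sulindac over adenoma 6 were higher and 1 lower, against 8.32% and 9.10%, and in sulindac over MIN 5 were higher and 1 lower, against 23.0% and 26.8%. The median log2 fold change of the 12 was −0.28, 0.79 and 0.37 in these comparisons. When counts were scaled by library size alone, the median of all genes in sulindac over adenoma moved to −0.18 and 603 genes were higher and 1983 lower, in place of 1078 and 1179. Akr1b3, Ptgr2, Ptger1 and Ptgfrn passed in no comparison.

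At the head of the pathway, Pla2g4a encodes the cytosolic phospholipase A2 that frees arachidonic acid. It had 1495, 1854 and 793 counts in MIN, 292, 119 and 133 in adenoma and 1880, 1657 and 1852 in sulindac organoids, so that adenoma lay lowest with no overlap. The level of 32.5 ± 9.6 CPM in MIN fell by 2.66 on the log2 scale in adenoma (SE 0.37, adjusted p 0.000361), to 5.12 ± 2.68 CPM, and rose by 3.45 in sulindac over adenoma (SE 0.32, adjusted p 0.000255), to 55.7 ± 6.22 CPM. In sulindac over MIN the log2 difference was 0.77 with an adjusted p of 0.0135, and 0.00905 with the replicate block.

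Ptgds, the lipocalin-type prostaglandin D synthase, went the other way. It had 32, 44 and 54 counts in MIN, 434, 835 and 726 in adenoma and 83, 240 and 145 in sulindac organoids. It rose by 4.16 on the log2 scale in adenoma over MIN (SE 0.33, adjusted p 1.44e-05) and fell by 1.97 in sulindac over adenoma (SE 0.35, adjusted p 0.00390). The latter gave adjusted p values of up to 0.0233 when adenoma 2, adenoma 3, sulindac 1 or sulindac 3 was left out. Beside Ptgds and Ptges, Cd68, a lysosomal marker of macrophages, was at 1.67 ± 0.566, 11.5 ± 4.24 and 3.31 ± 0.538 CPM in the 3 groups and passed in adenoma over MIN (adjusted p 0.000193, higher) and in sulindac over adenoma (adjusted p 0.00193, lower), while Tyrobp and Emr1 were at 0 throughout. The other leukocyte and macrophage marker tested, Lyz2, had 17, 23 and 13 counts in MIN and 0 or 1 in any other sample, and was lower in adenoma than MIN (adjusted p 0.000434). The summed level of the 8 leukocyte and macrophage markers was 1.69 to 2.70, 8.21 to 16.5 and 2.97 to 4.17 CPM, most of it from Cd68 in adenoma, where Cd68 alone was at 7.93 to 16.2 CPM. Their part in the levels of Ptges and Ptgds was not tested.

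Of the genes that convert or export prostaglandins, Cbr1, Ptgr1, Zadh2, Akr1b8 and Abcc4 rose in sulindac over adenoma, and Cbr1, Ptgr1, Zadh2 and Fam213b fell while Abcc4 rose in adenoma over MIN. Cbr1, a carbonyl reductase that converts prostaglandin E2 to prostaglandin F2α, was at 318 ± 50.5 CPM in MIN, 90.0 ± 27.1 in adenoma and 481 ± 51.1 in sulindac organoids (SD, n = 3). It fell by 1.82 on the log2 scale in adenoma over MIN (adjusted p 0.000204) and rose by 2.43 in sulindac over adenoma (adjusted p 0.000201). Its difference of 0.59 in sulindac over MIN (adjusted p 0.00380) did not pass without MIN 1, MIN 2, sulindac 1 or sulindac 2, with adjusted p values of up to 0.0167. Ptgr1, prostaglandin reductase 1, was at 155 ± 7.53, 80.7 ± 7.68 and 226 ± 27.6 CPM, and passed in all 3 comparisons (log2 −0.94, 1.49 and 0.54).

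Zadh2, prostaglandin reductase 3, was at 97.2 ± 7.61, 50.8 ± 4.96 and 87.8 ± 0.968 CPM and passed in adenoma over MIN (log2 −0.93) and in sulindac over adenoma (0.80), with adjusted p values of 0.000184 and 0.00105. Akr1b8, an aldo-keto reductase, was at 56.7 ± 10.3, 67.3 ± 22.1 and 188 ± 32.2 CPM and rose by 1.50 on the log2 scale in sulindac over adenoma (adjusted p 0.00251, and 0.0103 without sulindac 1). Fam213b, a prostaglandin F synthase, was at 60.5 ± 11.7, 7.83 ± 2.69 and 13.3 ± 0.627 CPM and fell by 2.95 on the log2 scale in adenoma over MIN (adjusted p 2.01e-05). Abcc4, the multidrug resistance protein that exports prostaglandins, was at 38.5 ± 2.72, 67.3 ± 13.1 and 285 ± 26.9 CPM. Its log2 rise was 0.81 in adenoma over MIN (adjusted p 0.00216, and 0.0113 without MIN 1), 2.09 in sulindac over adenoma (adjusted p 0.000140) and 2.89 in sulindac over MIN (adjusted p 1.09e-07).

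**Figure D4:**
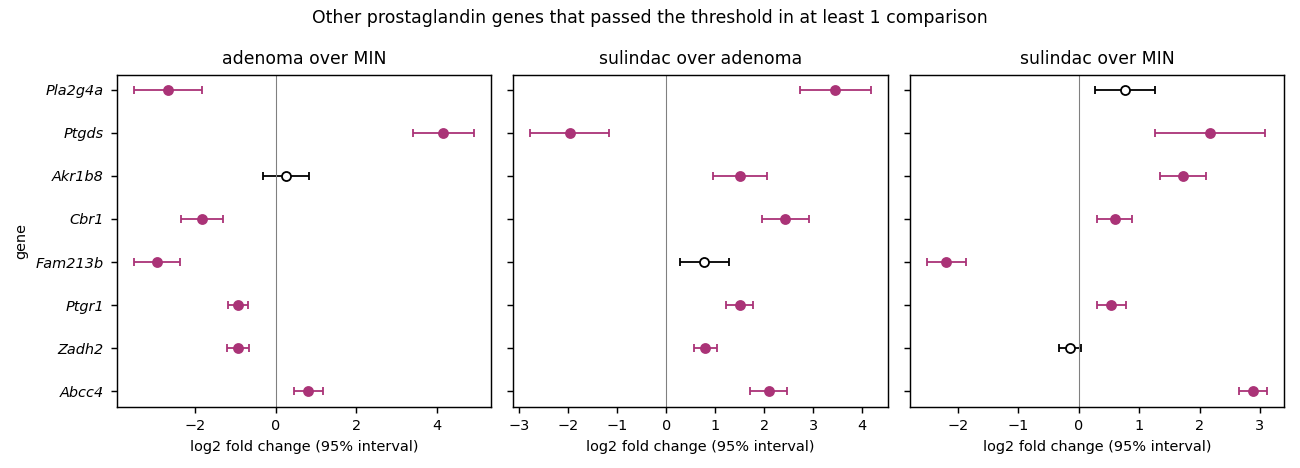
Log2 fold change of the 8 other prostaglandin genes that passed in at least 1 comparison (edgeR; lines are 95% intervals, filled points passed the FDR of 1%; each panel has its own axis). In sulindac over adenoma Pla2g4a (3.45), Cbr1 (2.43) and Abcc4 (2.09) rose and Ptgds (−1.97) fell.

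Of the other prostaglandin E2 receptors, Ptger1 (EP1) was at 8.82 ± 1.15, 6.74 ± 1.02 and 6.21 ± 0.609 CPM in MIN, adenoma and sulindac organoids and passed in no comparison. Ptger2 (EP2) had 0 counts in all 9 samples, and Ptger3 (EP3) had 3, 3 and 8 in MIN and 0 elsewhere. Of the prostaglandin E2 receptor genes tested, Ptger4 was therefore the only one that passed in any comparison.

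Of 15 genes listed with the lipoxygenase and leukotriene branch, another use of arachidonic acid, 6 could be tested in adenoma over MIN, with 1 higher and 2 lower. The shares of all genes tested were 18.5% and 20.1% there, 8.32% and 9.10% in sulindac over adenoma, and 23.0% and 26.8% in sulindac over MIN. Ltc4s, leukotriene C4 synthase, was at 0.577 ± 0.232, 2.21 ± 0.919 and 1.45 ± 0.254 CPM and was higher in adenoma than MIN (log2 1.95, adjusted p 0.00373). Without MIN 1, MIN 2 or adenoma 3 its adjusted p was 0.0124 to 0.0181. Lta4h, leukotriene A4 hydrolase, was at 170 ± 21.0, 116 ± 13.1 and 148 ± 9.95 CPM and fell by 0.55 on the log2 scale in adenoma (adjusted p 0.00731), a call that did not hold with the replicate block (0.0206) or without MIN 1, MIN 2, adenoma 1 or adenoma 2 (up to 0.0359). Ephx2, soluble epoxide hydrolase, is on the list but acts mainly on epoxides from outside this branch. Ephx2 had 2176, 1961 and 826 counts in MIN, 1, 0 and 2 in adenoma and 20, 20 and 11 in sulindac organoids, and was lower in adenoma (adjusted p 1.71e-06). In sulindac over adenoma 1 of 5 was higher (Ephx2, adjusted p 0.00302, and up to 0.0135 without adenoma 1, adenoma 2, sulindac 1 or sulindac 2), and in sulindac over MIN 1 of 6 was higher (Ltc4s, adjusted p 0.00881, and up to 0.0380 when any sample other than MIN 3 was left out) and 1 lower (Ephx2).

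Genes known to respond to cyclic AMP, the messenger that EP4 raises, were looked at as a list of 10. In adenoma over MIN 4 of 9 tested were higher and 2 lower, against 18.5% and 20.1% of all genes tested. In sulindac over adenoma 1 of 7 was higher and 1 lower, against 8.32% and 9.10%, and in sulindac over MIN 3 of 8 were higher and 1 lower, against 23.0% and 26.8%. Sik1, a kinase of this response, was at 9.96 ± 1.29, 28.3 ± 2.51 and 29.4 ± 3.31 CPM and rose by 1.51 on the log2 scale in adenoma (adjusted p 4.08e-05). Pde4d, a phosphodiesterase that degrades cyclic AMP, was at 15.6 ± 1.08, 28.5 ± 5.16 and 34.7 ± 1.70 CPM (log2 0.88 in adenoma over MIN, adjusted p 0.00135), whereas Pde4b had 139, 208 and 172 counts in MIN and at most 1 in any other sample (adjusted p 4.85e-06). Per1, a clock gene, was at 30.3 ± 8.32, 54.2 ± 9.02 and 78.4 ± 13.2 CPM, and its rise in adenoma (adjusted p 0.00761) did not pass when any sample other than MIN 3 was left out (0.0106 to 0.0328).

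Crem, a transcription factor of the cyclic AMP response, was at 3.29 ± 0.355, 6.42 ± 0.486 and 3.71 ± 0.288 CPM. It rose by 0.97 on the log2 scale in adenoma (adjusted p 0.00258, and 0.0158 without MIN 2) and fell by 0.78 in sulindac over adenoma (adjusted p 0.00707, 0.0128 with the replicate block, and 0.0127 to 0.0366 when any of the 6 samples was left out). Areg, the EGF receptor ligand amphiregulin, had 2954, 3299 and 9022 counts in MIN, 539, 374 and 636 in adenoma and 2796, 4171 and 5630 in sulindac organoids. It fell by 3.14 on the log2 scale in adenoma (adjusted p 0.000876, and 0.0109 without adenoma 1; log2 −2.28 without MIN 3, the highest sample) and rose by 3.14 in sulindac over adenoma (adjusted p 0.000149). The list thus held genes that rose and genes that fell in adenoma.

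The cultures were epithelial by their markers, and the enterocyte markers among them differed between groups. The summed level of 7 epithelial markers was 5494 to 7977 CPM in MIN, 3214 to 4234 in adenoma and 4510 to 5385 in sulindac organoids, and 5 of the 7 were lower in adenoma than MIN. With the replicate block 6 were lower and 1 higher, as Epcam (lower) and Krt18 (higher) then passed too. That of 8 enterocyte markers was 3164 to 5146 CPM in MIN, 13.7 to 15.7 in adenoma and 7.60 to 10.5 in sulindac organoids, with all 8 lower in adenoma over MIN and in sulindac over MIN. Among 8 fibroblast markers, Col1a2, Col3a1, Dcn and Lum were at 0 in all 9 samples, and the summed level was 3.94 to 4.22, 1.98 to 2.37 and 0.825 to 1.08 CPM. Pdgfrb made up most of it in MIN, at 3.57 ± 0.169 CPM, and had at most 1 count in any other sample. Pdgfra and Col1a1 went the other way, with mean levels of 0.152 and 0.376 CPM in MIN and 0.866 and 1.19 in adenoma. Of these 8, 3 were tested in adenoma over MIN, and 1 was higher and 1 lower (2 and 1 with the replicate block, which adds Col1a1). Without the block, the shares of all genes tested that were higher and lower were 18.5% and 20.1% in adenoma over MIN. They were 23.0% and 26.8% in sulindac over MIN. The enterocyte markers moved in the same direction as Ptger4, Slco2a1, Ptges2, Hpgds and Tbxas1 in adenoma over MIN and in sulindac over MIN, and their part in those differences was not tested.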

How the data were processed

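RNA was extracted with the QIAGEN miRNeasy kit, and libraries were made and sequenced by Illumina protocols. The authors deposited raw counts of reads per gene symbol, without normalization, in 1 table of 23955 rows. The submitters' processing notes name RSEM, Bowtie2 2.2.4 and mm9 with no further role, and the annotation, the strand setting and whether reads were paired are not given in the sources used here. For MIN 1 the table holds both runs and a column equal to their sum in all 23955 rows. The runs (20535210 and 20471177 counts) differed by little more than sampling noise (chi-square per gene 1.19), and the sum was used as 1 sample. In 27 rows the symbol had become a date, and these were kept unnamed.

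Counts were filtered with filterByExpr, normalized by TMM and tested with edgeR 4.0.16 in R 4.3.3 (glmQLFit with robust estimation, glmQLFTest), fitting the 6 samples compared. The Benjamini-Hochberg adjustment ran over all genes tested, with an FDR of 1%. The SE was taken as the size of the log2 fold change over the root of the F statistic. The script was tested on simulated counts.

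Between MIN and adenoma samples of the same number, deviations from the group means correlated at 0.114 to 0.193. Other pairs ran from −0.149 to 0.0703. As deviations cancel out within a group, the average of the other pairs (−0.0676) largely follows from the same-numbered ones and is no separate support. All same-numbered pairs were over the minimum of 0.1 used here. The fit with the replicate number as a block is therefore given beside a result where it changed the call. The pairing comes from these correlations, not from the labels. The 10 genes and all lists (other prostaglandin genes, lipoxygenase and leukotriene, cyclic AMP, and markers of epithelium, enterocytes, tuft cells, leukocytes and macrophages, mast cells, fibroblasts and endothelium) were chosen with earlier results of these data known. Named were all 10 genes, those of the first 3 lists that passed in at least 1 comparison, and the 3 genes most like Ptgs1 and most like Hpgd. The genes that passed in no comparison, the receptors with few counts and the single markers were named after their values were seen. Each result was recomputed with RLE size factors in place of TMM, with no normalization factor beyond library size, without the low-count filter, with a minimum of 10 counts in every sample, in a joint fit of the 9 samples, with the replicate block, with single samples left out, with DESeq2 1.42.0 (Wald test), at an FDR of 5% and with a minimum change of 2-fold. The same alternatives for genes of the first 3 lists, in comparisons where they passed, were added after the data were seen. Promoter windows were matched by symbol for all 10 genes, and shared 50-base stretches were counted over GENCODE M21 transcripts on either strand.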

Additional observations from a re-analysis of the deposited data

How the results depend on the processing

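The direction and the side of the threshold were recomputed under each alternative for each of the 10 genes. Genes of the other prostaglandin, lipoxygenase and leukotriene, and cyclic AMP lists entered only in comparisons where they passed. Those genes could therefore lose the threshold but not gain it. Of these values, 774 stayed on the same side, 64 lost and 4 gained the threshold and 4 changed direction. The gain of Pla2g4a in sulindac over MIN with the replicate block is thus not among them. With at least 10 counts in every sample, 3 of the 10 genes were lower in adenoma over MIN and 3 in sulindac over MIN (6 in each with the default filter), since genes near 0 in 1 group were then left out. Of all genes tested with that filter, 1920 of 12070 and 2793 of 11833 were lower in these 2 comparisons. The 1 gene higher in sulindac over adenoma, Slco2a1, gave 0 with library size alone, with at least 10 counts in every sample, with DESeq2 and without any 1 sample (range 0 to 0). Leaving out single samples gave 2 to 2 genes higher and 5 to 6 lower in adenoma over MIN, and 2 to 2 higher and 5 to 7 lower in sulindac over MIN. In those fits 1885 to 2441 of all genes were higher and 2238 to 2762 lower in adenoma over MIN, of 13897 to 14091 tested. In sulindac over MIN 2430 to 3405 were higher and 2912 to 3909 lower, of 13721 to 13892 tested. The direction of Hpgd in sulindac over adenoma (0.052) changed to −0.12 with library size alone, −0.064 without adenoma 2, −0.010 without adenoma 3 and −0.075 without sulindac 2 (range without single samples −0.075 to 0.25), and passed in none of these; the cause was not tested. At an FDR of 5%, 9, 1 and 9 genes passed in the 3 comparisons. The share of all genes that passed at 5% is not given here, so these counts have no baseline. Library size alone moved the median of all genes to 0.12 in adenoma over MIN and −0.18 in sulindac over adenoma.

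With the replicate block, 2 genes were higher and 5 lower in adenoma over MIN, 1 higher and 0 lower in sulindac over adenoma, and 2 higher and 6 lower in sulindac over MIN. Of all genes tested, 2531 were then higher and 2733 lower of 13744 in the first comparison. These were 872 and 1061 of 12962 in the second, and 3280 and 3791 of 13551 in the third. Same-numbered samples correlated at −0.0768 to 0.260 in sulindac over adenoma and at −0.0312 to 0.404 in sulindac over MIN. The lowest pair in each was under the minimum of 0.1 used here. Whether the samples were paired there cannot be told from these correlations. In those fits Crem (0.0128 in sulindac over adenoma) and Ltc4s (0.0137 in sulindac over MIN) no longer passed, and Pla2g4a passed in sulindac over MIN (0.00905); of the tuft cell markers, 5 in place of 4 were then lower in sulindac over MIN, and among the 10 genes the block changed no call but that of Hpgds in adenoma over MIN. A level under the floor of 3 counts could not be told from 0.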
